A study of Mus musculus with 9 samples.

Results

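The CD49b knockout line of a mouse pancreatic cancer pair was measured by bulk mRNA sequencing in 2 settings, as tumours under the skin and as a cell culture, and the tumours were compared with the cultures. The comparison takes every KPC49bKO library of the series, 2 KO tumours and 2 KO cultures, which are 4 of its 9 libraries; the other 5 are 2 cultures and 3 tumours of the unmodified line KPCWT (here WT). KPC lines come from a genetic mouse model of pancreatic adenocarcinoma. The KO cultures were cells of genotype KPC49B knockout kept in DMEM with 10% fetal bovine serum and penicillin/streptomycin and harvested at about 80% confluency. The KO tumours grew from cells of the same line placed under the flank skin of syngeneic C57BL/6 mice and were dispersed with enzymes before RNA extraction. All 4 libraries thus carry the knockout, and no label gives a treatment, the animals' age or sex, or the number of clones behind the line. A tumour library holds the RNA of whatever cells the digest held, host cells included.

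Setting, batch tag and deposited count table coincide in these libraries, so growth in the animal, the enzymatic digestion and any difference between the 2 processing batches cannot be told apart. The labels call the replicates biological without saying that they came from separate animals or dishes, so p-values measure the spread between these libraries. The second KO tumour is numbered 3 in the count table and 2 in the labels; it is called KO tumour 3 here.

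CD49b is integrin alpha 2, which pairs with integrin beta 1 into a receptor for collagens and laminins. A carcinoma cell line growing in an animal meets what a dish lacks: fibroblasts that deposit collagen, vessels, and immune cells that release interferons. Interferons raise antiviral and antigen-presentation genes, while a shortage of amino acids or a load of unfolded protein raises genes driven by the transcription factor ATF4. Epithelial cancer cells themselves secrete chemokines that attract neutrophils and growth factors of the EGF family.

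Each library held 16032912 to 21247023 counts, with 18412 to 22958 genes detected, and mitochondrially encoded genes took 2.05% to 3.33% of the counts. Levels below are counts scaled to a common library size by TMM over the 4 KO libraries (CPM), and a gene is called higher or lower in tumours when edgeR's quasi-likelihood test gave an adjusted p under 0.05. Of 14684 genes tested, 4487 (30.6%) were called higher and 3701 (25.2%) lower, so that 55.8% were called in either direction, and in 81.2% the 2 groups did not overlap. Those shares are the background for each count of list members. Without KO culture 2, 2413 genes were called higher and 2244 lower. Scaling by library totals shifted the median log2 fold change of all genes by 0.382, from 0.10 to 0.48, and the share of calls that were higher from 54.8% to 73.1%, with 6052 genes higher and 2222 lower. In bulk RNA, fewer cells of a type and less RNA per cell cannot be told apart.

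Itga2, the targeted gene (chromosome 13, 114833081 to 114932100, minus strand, GRCm38), still gave reads in all libraries of the knockout line, 90.3 and 96.8 CPM in the KO cultures and 42.6 and 62.5 CPM in the KO tumours. It fell in the tumours (log2 fold change -0.83, SE 0.22, adjusted p = 0.00746), without overlap. How the gene was disrupted is unknown here, transcript counts need not be 0 after a small edit, and these values do not test the protein. Itgb1, its beta 1 partner, had 679 and 804 CPM in the KO cultures and 589 and 540.1 CPM in the KO tumours and did not pass the test (adjusted p = 0.103). Itga1, the alpha chain of the related collagen receptor alpha 1 beta 1, rose from 73.6 and 72.1 CPM to 103 and 131 CPM (log2 fold change 0.68, SE 0.20, adjusted p = 0.0117).

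The labels name pancreatic cancer cells, and the levels of some epithelial markers were high in both settings. Krt8, a simple epithelial keratin, had 3188 and 3149 CPM in the KO cultures and 3417 and 2867 CPM in the KO tumours. Cdh1, which encodes E-cadherin, had 1052 and 1019 CPM in the KO cultures and 1238 and 1058 CPM in the KO tumours, and neither gene passed the test. Of the 20 keratin and junction genes listed, 5 had at most 3 counts over the KO cultures: Epcam, Cldn3, Cldn7, Esrp1 and Ovol1. Pdx1, a transcription factor of the pancreas and duodenum, rose slightly from 33.9 and 26.7 to 47.9 and 49.6 CPM. Ptf1a, Onecut1 and Nkx6-1, which mark acinar, ductal and endocrine programmes of the pancreas, had no count in any of the 4 libraries.

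The tumours held RNA of many genes at or near 0 in the cultures. There were 939 genes called higher that had at most 3 counts over the 2 KO cultures, 511 of them with none. Together they took 0.455% of the counts of KO tumour 1 and 0.751% of those of KO tumour 3. A gene silent in culture passes the low-count filter only if the tumours express it, so counts of such genes describe the tumours and support nothing further. The 10 most abundant of them by mean tumour level were Col1a1, Sparc, Col1a2, H2-Ab1, H2-Q6, Gbp7, Col3a1, Ctss, Sp100 and Lyz2: matrix genes, interferon-inducible and antigen-presentation genes, and the lysosomal genes Ctss and Lyz2 of myeloid cells.

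Macrophage genes appeared in both KO tumours. Of 25 macrophage and monocyte markers, 23 were tested, 20 were called higher and 2 lower. Lyz2, which encodes lysozyme, had no count in the cultures and 83.9 and 78.0 CPM in the tumours, at least 935-fold higher against the floor of 3 counts over the cultures (adjusted p = 9.96e-08). C1qa, a chain of complement C1q made by tissue macrophages, went from no count to 46.9 and 78.0 CPM. Csf1r, the receptor that macrophages need for survival, reached 19.9 and 43.1 CPM. Apoe, a lipid carrier of macrophages, rose from 1.09 and 0.518 to 421 and 558 CPM (log2 fold change 9.20, SE 0.35, adjusted p = 9.42e-08). KO tumour 3 was the higher in C1qa, Csf1r and Apoe, and the 2 tumours were close in Lyz2.

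The exceptions were markers that the cultured line itself expressed. Cd14, the lipopolysaccharide co-receptor, fell from 408 and 445 to 174 and 186 CPM (log2 fold change -1.25, SE 0.19, adjusted p = 0.000238). Mrc1, the mannose receptor, fell from 173 and 187 to 31.0 and 53.1 CPM (log2 fold change -2.09, SE 0.26, adjusted p = 0.000124). Spp1, osteopontin, stayed near one level in all libraries, with 1538 and 1385 CPM in the KO cultures and 1426 and 1522 CPM in the KO tumours (adjusted p = 0.962). With Spp1 included, the summed level of the list was 2132 and 2026 CPM in the KO cultures and 2352 and 2776 CPM in the KO tumours, and 17 of its 25 genes had at most 3 counts in culture. Neutrophil markers were sparse: of 17, 9 were tested, 6 called higher and 2 lower (1 lower without KO culture 2, 3 higher without KO tumour 3). The members called lower were Ltf, lactoferrin, from 3.43 and 4.79 to 0.112 and 0.791 CPM (log2 fold change -3.15, SE 0.72, adjusted p = 0.00379), and G0s2, an inhibitor of lipolysis. Among those called higher was Csf3r, the receptor for granulocyte colony-stimulating factor, at 2.62 and 8.22 CPM. Retnlg, a defining neutrophil gene, had no count in the tumours, and Ly6g had 0 and 0.105 CPM.

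Lymphocyte genes were at low levels in both KO tumours and higher in KO tumour 3. Of 28 T cell markers, 19 were tested, 17 were called higher and 1 lower. At most 3 counts over the KO cultures were found for 20 of the 28, so calls of such genes describe the tumours alone. Cd8a, the co-receptor of cytotoxic T cells, had no count in culture and 11.4 and 22.8 CPM in the tumours, at least 199-fold higher (adjusted p = 2.32e-05). Cd3e, part of the T cell receptor complex, went from no count to 3.46 and 7.38 CPM (adjusted p = 8.22e-05). Cd4, which marks helper cells, had 0.614 and 4.80 CPM. All 20 markers with at least 0.5 CPM in both tumours were higher in KO tumour 3. Without KO tumour 1, low-count genes pass the filter through KO tumour 3 alone, so counts of T cell markers from that fit are not given. Tigit, an inhibitory receptor of lymphocytes that the cultured line expressed, went the other way, from 43.7 and 39.0 CPM to 4.63 and 7.38 CPM (log2 fold change -2.78, SE 0.27, adjusted p = 1.49e-05).

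The 12 tested genes of the 20 in the NK and cytotoxic granule list were each called higher. Of the 20, 18 had at most 3 counts over the KO cultures, so calls of such genes describe the tumours and support nothing further. Gzmb, granzyme B, had 0 and 0.0647 CPM in the KO cultures and 1.06 and 8.75 CPM in the KO tumours (adjusted p = 0.0108). Prf1, perforin, went from no count to 1.17 and 4.06 CPM, at least 30.7-fold higher (adjusted p = 0.00106). Ccl5, a chemokine of cytotoxic lymphocytes, had 0.104 and 0 CPM in the KO cultures and 3.18 and 6.06 CPM in the KO tumours, a ratio of 80.8-fold (95% exact counting interval 22 to 673). Ifng, which encodes interferon gamma, was too low to be tested: no count in culture and 0.167 and 1.26 CPM in the tumours. Ncr1, the defining receptor of NK cells, had 0.112 and 0.422 CPM in the tumours. Of 14 B and plasma cell genes, 2 were tested and both were called higher, Cd22 and Ighm. Dendritic cell markers were called higher in each of the 8 tested of 14, among them Xcr1 of cross-presenting cells at 0.837 and 2.00 CPM. The same limit holds here, since 12 of the 14 dendritic and all 14 B and plasma cell genes had at most 3 counts over the KO cultures.

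Vessels and stroma were present as well. Of 21 endothelial markers, 18 were tested and 17 called higher. In 15 of the 21 the KO cultures had at most 3 counts, so calls of such genes describe the tumours alone. Pecam1, the adhesion molecule CD31, went from no count to 8.48 and 19.98 CPM. Kdr, the main VEGF receptor, went from no count to 7.36 and 8.33 CPM. Egfl7, the marker that was not called, was already at 9.83 and 11.4 CPM in culture. Prox1, which defines lymphatic endothelium, had no count in the tumours. Each of the 11 tested pericyte and smooth muscle markers of 13 was called higher, with the same limit for the 9 of 13 at or under 3 culture counts. Rgs5, a pericyte gene, reached 62.0 and 29.5 CPM from no count, and Acta2, smooth muscle actin, 41.5 and 33.7 CPM from 0.052 and 0.0647 CPM.

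Of 18 fibroblast markers, 9 were tested and 8 called higher. The KO cultures had at most 3 counts in 12 of the 18, so calls of such genes describe the tumours alone. Postn, a matrix protein of activated fibroblasts, went from no count to 37.9 and 56.2 CPM. Thy1 went from no count to 12.2 and 25.4 CPM, and Pdgfra, a defining fibroblast receptor, had only 0.112 and 1.79 CPM and was not tested. Skeletal muscle genes were called higher in 9 of 12 tested, a count that depended on single libraries. The same limit holds for the 11 of 16 listed muscle genes with at most 3 counts over the KO cultures. Myh4, a fast muscle myosin, had no count in culture and 15.3 and 1.84 CPM in the tumours (adjusted p = 0.0606). Summed over the list, muscle genes had 8.95 and 8.35 CPM in the KO cultures and 113 and 45.4 CPM in the KO tumours, the most in KO tumour 1. Globin genes were also highest in KO tumour 1: Hbb-bs, a beta globin, had 20.3 and 2.32 CPM (adjusted p = 0.0858). The part of muscle, blood and other host cells in the results below was not tested.

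**Figure D1:**
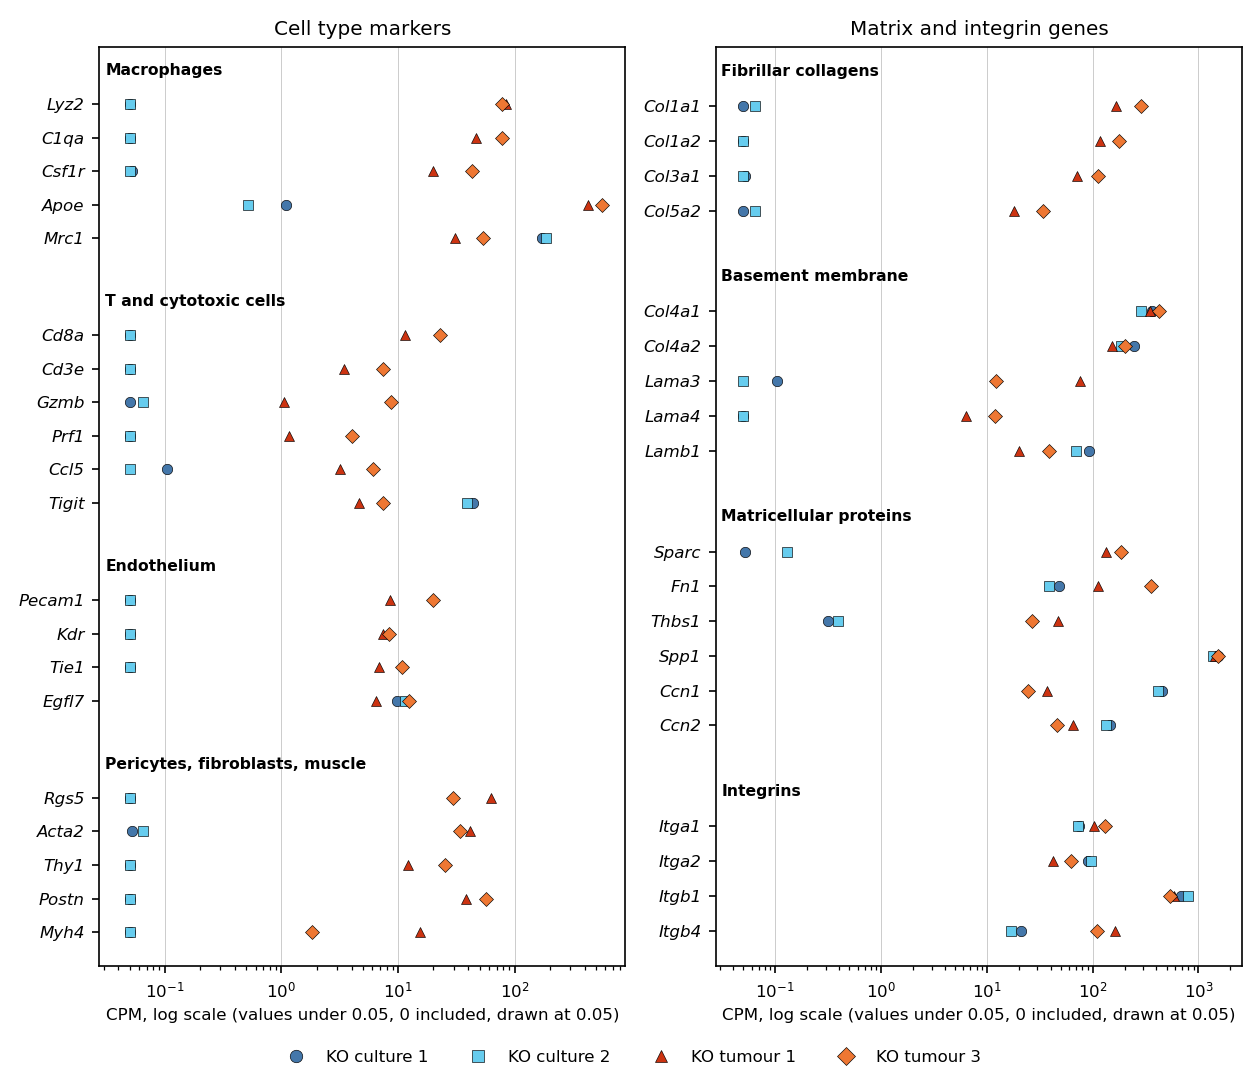
Level of selected cell type markers (left) and matrix and integrin genes (right) in each KO library, in CPM on a log axis. 1 point is 1 library, and values under 0.05, 0 included, are drawn at 0.05. Most host markers and fibrillar collagens lie at or near 0 in the cultures and above that in the tumours, while Mrc1, Tigit, Ccn1 and Ccn2 lie lower in the tumours.

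Collagen genes were higher in the tumours. Of 23 collagen chains, 21 were tested, 17 were called higher and none lower (1 lower without KO tumour 1 or KO tumour 3), with a median log2 fold change of 5.25 beside 0.10 over all genes (5.25 with genes absent from culture set at their lower bound). Col1a1, a chain of type I fibrils (chromosome 11, 94936224 to 94953042), had 0 and 0.0647 CPM in the KO cultures and 167 and 286 CPM in the KO tumours, a ratio of 7910-fold (95% exact counting interval 1420 to 313000). Col1a2, its partner chain, went from no count to 116 and 178 CPM, at least 1710-fold higher. Col3a1, which forms thin fibrils with type I, had 0.052 and 0 CPM in the KO cultures and 71.4 and 112 CPM in the KO tumours. These fibrillar chains were near silent in culture and higher in KO tumour 3 than in KO tumour 1. The basement membrane chains Col4a1 and Col4a2 were already expressed in culture and were not called; Col4a1 had 364 and 289 CPM in the KO cultures and 346 and 425 CPM in the KO tumours. Col27a1, a fibrillar chain of cartilage and epithelia that the line expressed in culture, rose from 7.28 and 4.79 to 138 and 101 CPM (log2 fold change 4.30, SE 0.28, adjusted p = 1.62e-06).

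Around the collagens, 18 of 22 tested matricellular and fibrillar glycoproteins were called higher. Sparc, a collagen-binding protein, had 0.052 and 0.13 CPM in the KO cultures and 135 and 187 CPM in the KO tumours (adjusted p = 6.27e-08). Fn1, fibronectin, rose from 48.5 and 38.4 to 113 and 353 CPM (log2 fold change 2.42, SE 0.66, adjusted p = 0.0482). Thbs1, thrombospondin, rose from 0.312 and 0.388 to 47.3 and 26.5 CPM (log2 fold change 6.70, SE 0.42, adjusted p = 1.48e-06). The 2 members called lower were Ccn1 and Ccn2, secreted proteins under YAP control: Ccn1 fell from 456 and 414 to 37.0 and 24.4 CPM (log2 fold change -3.83, SE 0.25, adjusted p = 1.25e-06). Lox, which crosslinks collagen, went from no count to 5.91 and 10.1 CPM. Mmp12, macrophage elastase, went from no count to 24.7 and 30.8 CPM. Plat, tissue plasminogen activator, fell from 429.6 and 477 to 107 and 139.6 CPM (log2 fold change -1.88, SE 0.21, adjusted p = 3.43e-05).

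Laminins moved unevenly. Of 13 tested basement membrane genes, 6 were called higher and 1 lower (2 higher without KO culture 2, 3 lower without KO tumour 1). Lama3, the alpha chain of epithelial laminin 332, had 0.104 and 0 CPM in the KO cultures and 76.5 and 12.1 CPM in the KO tumours, much the higher in KO tumour 1 (adjusted p = 0.0444). Lamb1 fell from 91.7 and 68.9 to 19.9 and 38.5 CPM (log2 fold change -1.46, SE 0.32, adjusted p = 0.00562). Among integrins and other collagen receptors, 15 of 26 tested were called higher and 2 lower (1 lower without KO culture 2, 5 lower without KO tumour 3), and 16 and 1 with library totals. Those called lower were Itga2 and the laminin receptor chain Itga7. Itgb4, the hemidesmosome chain that binds laminin 332, rose from 21.2 and 16.9 to 161 and 109 CPM (log2 fold change 2.82, SE 0.25, adjusted p = 9.41e-06). Itga4, Itgb2, Itgal, Itgam and Itgax, chains of leukocyte integrins, were also among those called higher.

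Every interferon-stimulated gene of the list was higher in the KO tumours. All 25 of 25 type I interferon-stimulated genes were tested and called higher, beside 30.6% of all genes, with a median log2 fold change of 5.99 beside 0.10 (5.99 with genes absent from culture set at their lower bound). Ifit1, which binds viral RNA, had 0.364 and 0.13 CPM in the KO cultures and 19.5 and 38.6 CPM in the KO tumours (log2 fold change 6.78, SE 0.53, adjusted p = 2.02e-05). Isg15, a ubiquitin-like modifier, had 1.46 and 1.68 CPM in the KO cultures and 14.1 and 20.1 CPM in the KO tumours (log2 fold change 3.44, SE 0.35, adjusted p = 2.3e-05). Ifih1, the RNA sensor MDA5, had 0.208 and 0.259 CPM in the KO cultures and 25.6 and 25.9 CPM in the KO tumours (log2 fold change 6.76, SE 0.37, adjusted p = 3.58e-07). Irf7, the transcription factor that amplifies the response, rose from 3.95 and 2.40 to 68.7 and 87.8 CPM (log2 fold change 4.61, SE 0.29, adjusted p = 1.16e-06). Oas2, an antiviral synthetase, rose from 0.052 and 0.388 to 117 and 166 CPM. Bst2, tetherin, was already at 65.0 and 62.5 CPM in culture and rose to 152 and 207 CPM (log2 fold change 1.49, SE 0.21, adjusted p = 0.000148). The cultures and tumours did not overlap in any of these 6 genes, a trait shared by 81.2% of all genes tested. Leaving out each library in turn left 22 to 25 of the 25 called higher.

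Promoters of these genes are shown because members moved together. RefSeq start sites on GRCm38.p6 were available for 19 of the 25 genes, and the core of the interferon-stimulated response element, 2 copies of GAAA with any 2 bases between them on either strand, lay within 250 bases before the start of 10 of them (52.6%). Over 27025 genes the share was 3.46%. The 120 bases before the start are given 5′ to 3′ in the direction of the gene, with each match in capitals. In Ifit1 (chr19:34640769-34640888, plus strand) the matches begin 104 and 85 bases before the start, and in Isg15 (chr4:156200819-156200938, minus strand) 3 overlapping matches begin 78, 72 and 66 bases before it.
Ifit1: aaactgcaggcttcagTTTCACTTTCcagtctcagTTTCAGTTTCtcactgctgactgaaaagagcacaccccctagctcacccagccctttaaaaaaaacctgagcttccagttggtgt
Isg15: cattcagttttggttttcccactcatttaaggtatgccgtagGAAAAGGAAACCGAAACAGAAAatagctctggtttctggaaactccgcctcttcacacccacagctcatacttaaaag
Both Ifit1 matches are on the opposite strand of the gene. Ifih1 and Irf7, without a match in their windows, rose as well. A match describes these letters and is not evidence of binding.

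Genes that respond foremost to interferon gamma rose too, with a wide gap between the tumours. Of 25 such genes, each tested, 19 were called higher and none lower (10 higher without KO culture 1, 7 higher without KO culture 2). All 25 were higher in KO tumour 3 than in KO tumour 1, with a median log2 ratio of 1.87 between the tumours. Gbp7, a guanylate-binding protein, had 0.104 and 0 CPM in the KO cultures and 47.8 and 143 CPM in the KO tumours (adjusted p = 0.00283). Irf8, an interferon-regulated transcription factor, had 0.052 and 0.0647 CPM in the KO cultures and 9.82 and 24.8 CPM in the KO tumours (adjusted p = 2.57e-05). Ido1, which degrades tryptophan, rose from 1.14 and 1.75 to 12.6 and 60.7 CPM (log2 fold change 4.67, SE 1.09, adjusted p = 0.036). Iigp1, an immunity-related GTPase, had 0 and 0.13 CPM in the KO cultures and 19.97 and 318 CPM in the KO tumours and did not pass the test (adjusted p = 0.0996). Cxcl9, a chemokine for T cells, had 0 and 0.194 CPM in the KO cultures and 13.1 and 106 CPM in the KO tumours and did not pass (adjusted p = 0.0653). Cxcl10, of the same group, had 0.832 and 0.971 CPM in the KO cultures and 4.96 and 36.6 CPM in the KO tumours (adjusted p = 0.0587). In Iigp1, Cxcl9 and Cxcl10 both tumours lay above both cultures, while 81.2% of all genes tested did not overlap in either direction.

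Antigen presentation genes were higher as well. Of 23 class I genes, 17 were called higher and none lower (11 higher without KO culture 2, 2 lower without KO tumour 1). B2m, the light chain of class I molecules, rose from 156 and 134 to 1110 and 1695 CPM (log2 fold change 3.28, SE 0.25, adjusted p = 4.91e-06). H2-K1, a classical heavy chain, rose from 633 and 577 to 1587 and 2551 CPM (log2 fold change 1.77, SE 0.25, adjusted p = 0.000174). Tap1, a peptide transporter, rose from 1.93 and 2.52 to 73.6 and 223 CPM (log2 fold change 6.07, SE 0.76, adjusted p = 0.0042). Psmb8, an immunoproteasome subunit, rose from 0.468 and 0.259 to 64.8 and 134 CPM (log2 fold change 8.03, SE 0.53, adjusted p = 2.86e-05). The chaperones Calr, Canx and Pdia3 of the same list were not called; Calr had 1334 and 1625 CPM in the KO cultures and 1298 and 928 CPM in the KO tumours.

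Class II genes, which professional antigen-presenting cells express, were called higher in 9 of 12 tested. Over the KO cultures 10 of the 15 listed had at most 3 counts, so calls of such genes describe the tumours alone. Cd74, the invariant chain, rose from 0.156 and 0.13 to 237 and 681 CPM (log2 fold change 11.57, SE 0.99, adjusted p = 0.00109). H2-Ab1, a class II beta chain, had 0 and 0.0647 CPM in the KO cultures and 60.4 and 210.2 CPM in the KO tumours (adjusted p = 0.00668). H2-Eb1 had no count in culture and 50.6 and 224 CPM in the tumours, and did not pass the test (adjusted p = 0.0864). Ciita, the class II master regulator, had 3.79 and 23.9 CPM in the tumours (adjusted p = 0.0575). KO tumour 3 was about as far above KO tumour 1 here as in the interferon-gamma list, with a median log2 ratio of 1.80. How the authors' counting treated reads shared by near-identical H2-Q, Gbp, Oas1, Ifit3 and Tgtp genes is not given in the sources used here, so their single values are uncertain.

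**Figure D2:**
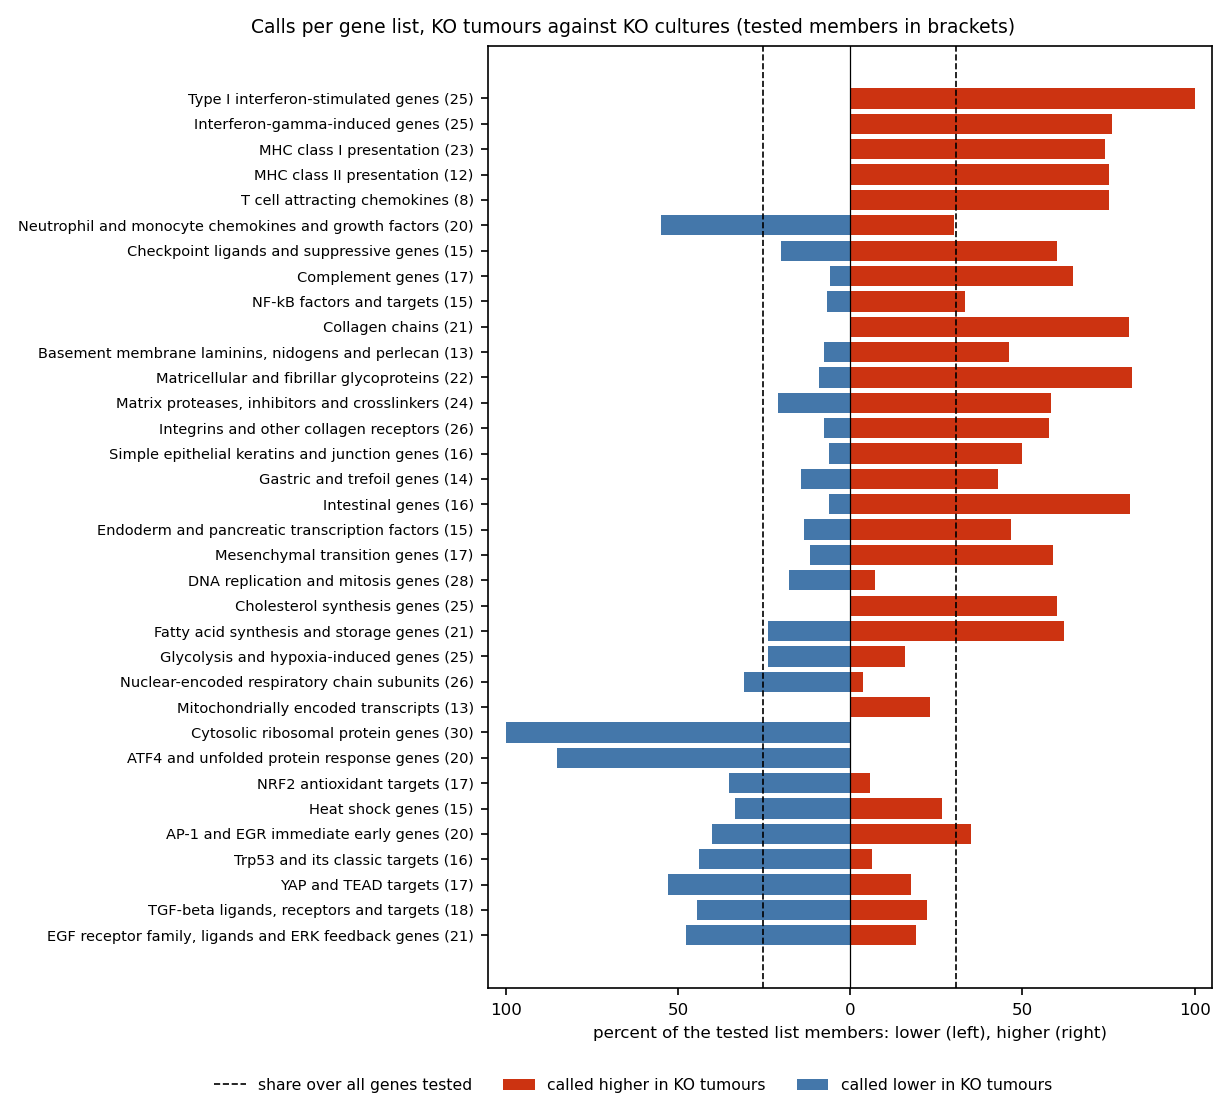
Share of the tested members of each gene list that were called higher (right) or lower (left) in KO tumours against KO cultures, with the number tested in brackets. Dashed lines give the shares over all genes tested, 30.6% higher and 25.2% lower. Bars for interferon-stimulated genes and ribosomal protein genes reach the full axis on opposite sides.

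Several chemokines that attract neutrophils fell from high culture levels. Of 20 tested chemokines and growth factors for neutrophils and monocytes, 11 were called lower, beside 25.2% of all genes, and 6 higher (3 higher without KO culture 1 or KO culture 2 or KO tumour 1). Cxcl5, a ligand of the neutrophil receptor CXCR2, fell from 1747 and 2026 CPM in the KO cultures to 17.7 and 30.0 CPM in the KO tumours (log2 fold change -6.30, SE 0.31, adjusted p = 3.58e-07). Cxcl1 fell from 299 and 351 to 6.14 and 8.01 CPM (log2 fold change -5.52, SE 0.24, adjusted p = 1.02e-07). Cxcl3 fell from 209.5 and 232 to 0.948 and 1.53 CPM (log2 fold change -7.46, SE 0.29, adjusted p = 6.27e-08). Ccl20, which attracts CCR6 cells, fell from 172 and 171 to 0.502 and 1.32 CPM (log2 fold change -7.53, SE 0.35, adjusted p = 3.49e-07). Csf2, the growth factor GM-CSF, fell from 12.5 and 19.4 to 0.0558 and 0.369 CPM (log2 fold change -6.16, SE 0.59, adjusted p = 2.46e-05). Lcn2, an iron-binding protein of inflamed epithelium, fell from 33.9 and 27.7 to 0.837 and 0.791 CPM (log2 fold change -5.23, SE 0.31, adjusted p = 6.23e-07). In each of these genes both cultures lay above both tumours, while 81.2% of all genes tested did not overlap in either direction. Summed over the list, the level was 2579 and 2924 CPM in the KO cultures and 78.1 and 102 CPM in the KO tumours.

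Cxcl1, Cxcl2, Cxcl3 and Cxcl5 lie in one cluster of related genes on mouse chromosome 5, and the promoters of Cxcl1 and Cxcl3 are shown as examples of members that fell together. An NF-kB site, GGGA and TTCC with any 2 bases between them on either strand, lay within 250 bases before the start of 5 of the 17 listed genes with a RefSeq start (29.4%), namely Cxcl1, Cxcl2, Cxcl3, Csf1 and Il6, against 1.36% of all genes. Each of those 5 was called lower, beside 11 of the 20 tested members of the list and 25.2% of all genes. A match is not evidence of binding, and the part of NF-kB in the fall was not tested. Ccl20, Csf2 and Lcn2, which have no match in this window, fell as well. In the 120 bases before the start of Cxcl1 (chr5:90891125-90891244, plus strand) and Cxcl3 (chr5:90785981-90786100, plus strand), 1 run in capitals matches on both strands, from 71 and from 73 bases before the start.
Cxcl1: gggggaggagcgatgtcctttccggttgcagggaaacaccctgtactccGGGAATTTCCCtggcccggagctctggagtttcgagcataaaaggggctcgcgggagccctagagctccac
Cxcl3: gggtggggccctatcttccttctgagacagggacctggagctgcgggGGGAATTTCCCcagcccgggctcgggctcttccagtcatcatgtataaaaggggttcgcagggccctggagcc
Of 15 NF-kB factors and feedback genes, 5 were called higher and 1 lower (3 higher and 0 lower without KO culture 1, 2 higher without KO culture 2). Nfkbia, the inhibitor induced by NF-kB, had 53.9 and 46.9 CPM in the KO cultures and 38.3 and 54.2 CPM in the KO tumours (adjusted p = 0.649). With library totals those counts were 8 and 0.

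The members that rose were at low levels. Ccl6, a chemokine for myeloid cells, had 0 and 0.388 CPM in the KO cultures and 5.80 and 6.69 CPM in the KO tumours. Il1b, interleukin 1 beta, had 0.26 and 0 CPM in the KO cultures and 1.45 and 11.4 CPM in the KO tumours. Tnf, a macrophage cytokine, rose from 0.78 and 0.842 to 2.23 and 2.11 CPM (log2 fold change 1.41, SE 0.54, adjusted p = 0.0419). Other secreted or surface regulators of immunity changed in both directions. Ptgs2, the inducible cyclooxygenase, fell from 109 and 99.6 to 1.06 and 2.95 CPM (log2 fold change -5.69, SE 0.41, adjusted p = 3.19e-05). Nt5e, CD73, which makes adenosine, fell from 1077 and 1290 to 425 and 363 CPM (log2 fold change -1.59, SE 0.20, adjusted p = 9.39e-05). Cd276, B7-H3, rose from 5.05 and 4.27 to 28.9 and 30.9 CPM (log2 fold change 2.68, SE 0.25, adjusted p = 1.23e-05). Cd274, PD-L1, had 4.58 and 4.98 CPM in the KO cultures and 4.18 and 22.98 CPM in the KO tumours; the groups overlapped (adjusted p = 0.205). C4b, complement C4, rose from 0.26 and 0.259 to 112 and 114 CPM (log2 fold change 8.73, SE 0.31, adjusted p = 6.27e-08).

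Most of the listed ATF4 and unfolded protein response genes had lower RNA levels in the tumours. Of 20 ATF4 and unfolded protein response genes, each tested, 17 were called lower and none higher, with a median log2 fold change of -2.10; library totals gave 14 and none. Phgdh, the first enzyme of serine synthesis, fell from 2340 and 2709 to 97.8 and 131 CPM (log2 fold change -4.47, SE 0.25, adjusted p = 3.58e-07). Psat1, the next enzyme of that pathway, fell from 741 and 955 to 54.6 and 106 CPM (log2 fold change -3.40, SE 0.34, adjusted p = 0.000136). Asns, asparagine synthetase, fell from 698 and 675 to 58.1 and 100.1 CPM (log2 fold change -3.12, SE 0.27, adjusted p = 1.58e-05). Chac1, which degrades glutathione, fell from 128 and 138 to 2.06 and 4.53 CPM (log2 fold change -5.32, SE 0.35, adjusted p = 7.88e-06). Atf4 itself fell from 1031 and 1114 to 156 and 205 CPM (log2 fold change -2.57, SE 0.21, adjusted p = 6.59e-06). Hspa5, the chaperone BiP of the endoplasmic reticulum, fell from 3030 and 3974 to 911 and 728 CPM (log2 fold change -2.10, SE 0.23, adjusted p = 3.41e-05). Hsp90b1, Sdf2l1 and Pdia4, chaperones of the same compartment, were not called; Pdia4 had 309 and 341 CPM in the KO cultures and 305 and 299.6 CPM in the KO tumours. Cth, which makes cysteine, lay outside the list and was among the 10 genes that fell furthest, from 449.7 and 493 to 1.67 and 3.69 CPM (log2 fold change -7.45, SE 0.36, adjusted p = 1.01e-06).

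Asns is a textbook target of ATF4. The core TGATGNAA, on either strand, lay within 250 bases before the start of 4 of 18 listed genes with a RefSeq start (22.2%), Asns, Chac1, Slc7a11 and Herpud1, against 3.91% of all genes. In the 120 bases before the start of Asns (chr6:7693210-7693329, minus strand) the match, in capitals, begins 23 bases before it.
Asns: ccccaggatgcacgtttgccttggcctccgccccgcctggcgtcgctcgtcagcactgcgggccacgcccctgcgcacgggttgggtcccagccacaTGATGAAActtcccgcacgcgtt
Genes of the list without a match in this window, such as Phgdh and Trib3, fell as well. A match is not evidence of binding.

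**Figure D3:**
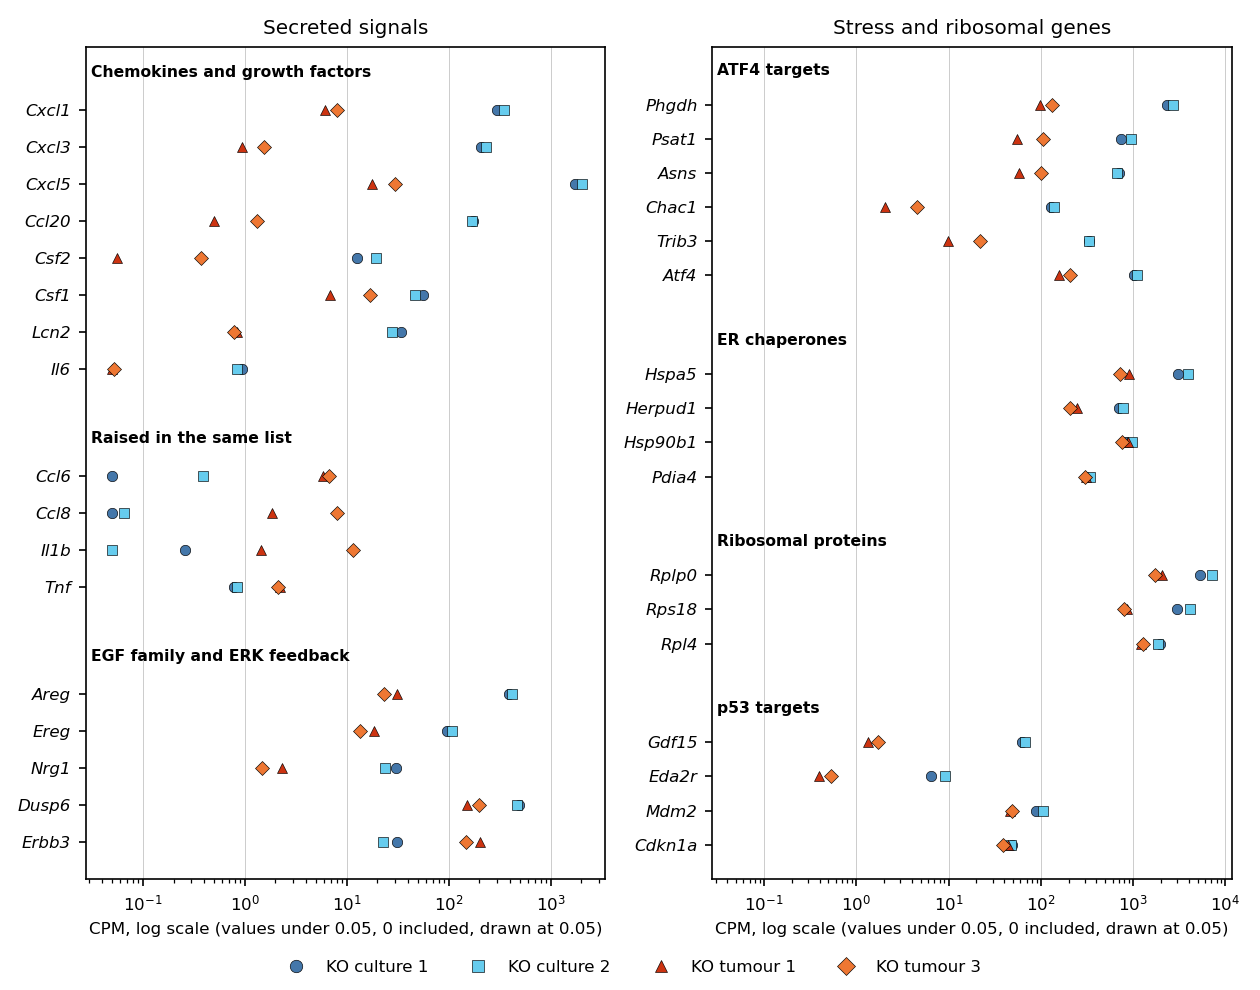
Level in each KO library of secreted signals (left) and of stress, ribosomal and p53 target genes (right), in CPM on a log axis, 1 point per library, with values under 0.05 drawn at 0.05. For Cxcl5, Ccl20, Phgdh, Chac1 and Gdf15 both tumours lie far left of both cultures, while Hsp90b1 overlaps and Pdia4 and Cdkn1a lie close.

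Ribosomal protein genes were lower as a group: 30 of 30 were called lower, with a median log2 fold change of -1.50, and with library totals 28 with a median of -1.11. Rplp0, of the ribosomal stalk, fell from 5302 and 7197 to 2031 and 1729 CPM (log2 fold change -1.73, SE 0.23, adjusted p = 0.000117). Rps24 fell from 1534 and 1849 to 469 and 418 CPM (log2 fold change -1.93, SE 0.21, adjusted p = 2.94e-05). Their summed level was 60700 and 74970 CPM in the KO cultures and 25410 and 22480 CPM in the KO tumours. These genes have many processed pseudogenes, and how reads shared with them were counted is not given in the sources used here. Myc, a driver of ribosome production, fell from 519 and 407 to 151 and 133 CPM (log2 fold change -1.71, SE 0.20, adjusted p = 5.68e-05). Any link between Myc and the ribosomal protein genes was not tested.

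Several ligands of the EGF receptor family fell while 3 receptors rose. Of 21 tested genes of the family and its ERK feedback, 10 were called lower and 4 higher (2 higher without KO culture 2), and 10 and 7 with library totals. Areg, amphiregulin, fell from 391 and 416 to 31.0 and 23.3 CPM (log2 fold change -3.89, SE 0.22, adjusted p = 5.27e-07). Ereg, epiregulin, fell from 96.6 and 107 to 18.4 and 13.5 CPM (log2 fold change -2.67, SE 0.23, adjusted p = 7.13e-06). Nrg1, a ligand of the receptors Erbb3 and Erbb4, fell from 30.7 and 23.9 to 2.34 and 1.48 CPM (log2 fold change -3.84, SE 0.32, adjusted p = 6.48e-06). Erbb3 rose from 30.8 and 22.6 to 204 and 148 CPM (log2 fold change 2.72, SE 0.24, adjusted p = 1.01e-05), and Egfr and Erbb2 were also called higher. Erbb4 had no count in any of the 4 libraries. Dusp6, a phosphatase induced by ERK, fell from 489 and 466 to 151 and 199 CPM (log2 fold change -1.45, SE 0.20, adjusted p = 0.000163). Spred2, an ERK inhibitor, was the fourth member called higher.

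YAP and TEAD targets were called lower in 9 of 17 and higher in 3 (1 higher without KO culture 2). Ankrd1, a classic YAP target, fell from 237 and 207 to 90.8 and 36.4 CPM (log2 fold change -1.80, SE 0.45, adjusted p = 0.0229). Yap1 fell from 250.4 and 267 to 141 and 153 CPM (log2 fold change -0.81, SE 0.18, adjusted p = 0.00293). Fstl1, which was called higher, had no count in culture and 29.5 and 34.0 CPM in the tumours. Among p53 and its targets, 7 of 16 were called lower and 1 higher (0 higher without KO culture 2), and with library totals 6 and 4. Gdf15, a stress cytokine also induced by ATF4, fell from 62.3 and 68.0 to 1.34 and 1.74 CPM (log2 fold change -5.39, SE 0.26, adjusted p = 1.92e-07). Trp53 itself rose from 3.54 and 2.20 to 6.58 and 11.4 CPM (log2 fold change 1.64, SE 0.43, adjusted p = 0.00666). Cdkn1a, the p21 gene, had 48.6 and 47.8 CPM in the KO cultures and 43.7 and 38.9 CPM in the KO tumours (adjusted p = 0.347).

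Genes of the TGF-beta family split: 4 of 18 were called higher and 8 lower (5 lower without KO culture 1, 1 higher and 5 lower without KO culture 2), and with library totals 5 and 4. Tgfb1 rose from 42.0 and 33.7 to 67.5 and 76.1 CPM (log2 fold change 0.92, SE 0.21, adjusted p = 0.00281). Id3, a target of BMP signals, fell from 53.7 and 53.5 to 11.1 and 4.32 CPM (log2 fold change -2.81, SE 0.42, adjusted p = 0.00175). Immediate early genes, which respond within minutes to serum or handling, also split, with 7 higher and 8 lower of 20 (4 higher without KO culture 1, 2 higher without KO culture 2), and 8 and 7 with library totals. Fos rose from 37.7 and 33.3 to 53.3 and 94.0 CPM (log2 fold change 1.05, SE 0.27, adjusted p = 0.00783). Atf3, a stress-induced factor, fell from 130.3 and 138 to 12.7 and 30.9 CPM (log2 fold change -2.62, SE 0.43, adjusted p = 0.00365). Of 15 heat shock genes, 4 were called higher and 5 lower (3 lower without KO culture 1 or KO culture 2 or KO tumour 1 or KO tumour 3), and 5 and 3 with library totals. Hspa1b, an inducible HSP70, rose from 14.9 and 11.7 to 52.4 and 57.0 CPM (log2 fold change 2.04, SE 0.22, adjusted p = 3.1e-05). Enzymatic digestion was done in the tumours alone, and its part in these genes was not tested. Over all genes tested, 30.6% were called higher and 25.2% lower. The heat shock counts lay near those shares and do not set that list apart.

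Among epithelial genes, 8 of 16 tested keratin and junction genes were called higher and 1 lower (2 lower without KO tumour 1). Epcam, an epithelial surface adhesion molecule, was near 0 in culture and clear in the tumours, 0 and 0.0647 CPM in the KO cultures and 32.7 and 40.0 CPM in the KO tumours, a ratio of 1260-fold (95% exact counting interval 226 to 50000). Elf3, an epithelial transcription factor, rose from 156 and 124 to 471 and 385 CPM (log2 fold change 1.61, SE 0.21, adjusted p = 9.05e-05). Krt20, a keratin of differentiated gut epithelium, rose from 328 and 326 to 929 and 651 CPM (log2 fold change 1.27, SE 0.22, adjusted p = 0.000527). Krt18 fell from 3472 and 3244 to 1699 and 1491 CPM (log2 fold change -1.07, SE 0.20, adjusted p = 0.001), while its partner Krt8 was not called. Snai2, a repressor of epithelial genes, fell from 31.8 and 22.6 to 1.06 and 1.69 CPM (log2 fold change -4.30, SE 0.34, adjusted p = 4.92e-06). Vim, the mesenchymal filament vimentin, rose from 1806 and 1451 to 2524 and 2647 CPM (log2 fold change 0.67, SE 0.21, adjusted p = 0.0165). Sox9, a duct and progenitor factor, rose from 4.99 and 3.82 to 29.1 and 38.0 CPM (log2 fold change 2.92, SE 0.27, adjusted p = 1.1e-05). Sox17, an endoderm factor, fell from 209.7 and 179 to 53.5 and 54.4 CPM (log2 fold change -1.85, SE 0.19, adjusted p = 2.43e-05).

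Intestinal genes were called higher in 13 of 16 tested and lower in 1 (8 higher without KO culture 2, 2 lower without KO tumour 1). Alpi, intestinal alkaline phosphatase, rose from 10.1 and 7.77 to 394 and 478 CPM (log2 fold change 5.60, SE 0.25, adjusted p = 1.02e-07), the largest rise among the ranked genes with at least 5 CPM in culture. Vil1, villin of the brush border, rose from 25.2 and 21.6 to 131 and 114 CPM (log2 fold change 2.39, SE 0.21, adjusted p = 7.86e-06). Fabp1, a fatty acid carrier of enterocytes, rose from 0.416 and 0.324 to 9.65 and 21.2 CPM (log2 fold change 5.34, SE 0.52, adjusted p = 2.16e-05). Cdx2, the intestinal master factor, fell from 29.0 and 30.0 to 12.8 and 15.2 CPM (log2 fold change -1.07, SE 0.22, adjusted p = 0.00176). Lgr5, the intestinal stem cell marker, had no count in any of the 4 libraries. Dmbt1, a mucosal scavenger protein outside the list, rose from 70.4 and 60.6 to 3107 and 3070 CPM (log2 fold change 5.56, SE 0.24, adjusted p = 9.96e-08), with almost equal tumours.

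Gastric genes diverged between the tumours. Of 14 tested, 6 were called higher and 2 lower (4 lower without KO tumour 1, 10 higher without KO tumour 3). Ctse, cathepsin E, rose from 184 and 167 to 1837 and 834 CPM (log2 fold change 2.92, SE 0.39, adjusted p = 0.000947). Muc1, a surface mucin, rose from 219 and 184 to 757 and 510.5 CPM (log2 fold change 1.65, SE 0.23, adjusted p = 0.00016). Gkn2, gastrokine 2, had 21.3 and 30.3 CPM in the KO cultures and 569 and 22.6 CPM in the KO tumours (adjusted p = 0.287), high in KO tumour 1 only. Gkn1 had 5.77 and 6.34 CPM in the KO cultures and 231 and 6.22 CPM in the KO tumours (adjusted p = 0.261), with the same split. Anxa10, an annexin of gastric epithelium, fell from 734 and 864 to 438 and 366 CPM (log2 fold change -0.99, SE 0.20, adjusted p = 0.00155).

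Other genes expressed in culture that rose most included Tgm2, a transglutaminase that crosslinks proteins, from 35.6 and 29.7 to 453 and 496 CPM (log2 fold change 3.86, SE 0.21, adjusted p = 3.58e-07). Xdh, xanthine dehydrogenase, rose from 13.2 and 13.3 to 149.7 and 259 CPM (log2 fold change 3.94, SE 0.29, adjusted p = 7.41e-06). Sptssb, a subunit of serine palmitoyltransferase, rose from 16.9 and 17.9 to 242 and 188 CPM (log2 fold change 3.63, SE 0.22, adjusted p = 6.97e-07). Fhl1, H2-Q4, Arhgef16 and Dtx3l completed the 10. Besides the chemokines and Cth, the 10 genes that fell furthest held Aqp5, a water channel, from 31.8 and 33.5 to 0.112 and 0.105 CPM (log2 fold change -8.14, SE 0.38, adjusted p = 1.33e-07). Il13ra2, the decoy receptor of interleukin 13, had 4.42 and 6.15 CPM in culture and no count in the tumours. Csf2, described above, and Clca3b, Igsf11 and Atp6v1c2 were the rest.

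Cholesterol synthesis genes were higher in the KO tumours. Of 25, 15 were called higher and none lower (8 higher without KO culture 1, 6 higher without KO culture 2), with a median log2 fold change of 0.65, and 22 with library totals. Fdft1, squalene synthase, rose from 23.9 and 24.9 to 85.4 and 75.6 CPM (log2 fold change 1.72, SE 0.20, adjusted p = 4.96e-05). Acat2 rose from 17.5 and 17.9 to 51.1 and 57.7 CPM (log2 fold change 1.62, SE 0.20, adjusted p = 8.35e-05). Hmgcs1, which makes HMG-CoA, rose from 94.6 and 93.9 to 238 and 199 CPM (log2 fold change 1.21, SE 0.19, adjusted p = 0.000312). Msmo1, further along the pathway, had 192 and 216 CPM in the KO cultures and 190.3 and 148 CPM in the KO tumours (adjusted p = 0.261). Among fatty acid genes, 13 of 21 were called higher and 5 lower (8 higher without KO culture 2), and 13 and 3 with library totals. Scd2, a desaturase, rose from 322 and 267 to 826 and 1141 CPM (log2 fold change 1.74, SE 0.22, adjusted p = 8.81e-05). Plin2, the lipid droplet coat, fell from 1932 and 2081 to 369.7 and 280.5 CPM (log2 fold change -2.63, SE 0.22, adjusted p = 6.72e-06).

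In energy metabolism the balance of higher and lower calls depended on scaling and on single libraries. Of 25 glycolysis and hypoxia genes, 4 were called higher and 6 lower (1 higher without KO culture 1, 1 higher and 3 lower without KO culture 2, 3 lower without KO tumour 1, 10 lower without KO tumour 3), with a median of -0.23, against 7, 3 and 0.15 with library totals. Gapdh had 3702 and 2946 CPM in the KO cultures and 2496 and 3079 CPM in the KO tumours (adjusted p = 0.338). Ero1l, an oxidase of the endoplasmic reticulum, fell from 476 and 503 to 111 and 127 CPM (log2 fold change -2.04, SE 0.19, adjusted p = 1.31e-05). Vegfa, the main angiogenic factor, fell from 441 and 461 to 203 and 266 CPM (log2 fold change -0.94, SE 0.20, adjusted p = 0.00211). Car9, a hypoxia-induced carbonic anhydrase, had 1.25 and 1.68 CPM in the KO cultures and 185 and 26.0 CPM in the KO tumours (adjusted p = 0.0668), mostly in KO tumour 1. Nuclear-encoded respiratory chain genes were called lower in 8 of 26 and higher in 1 (0 higher without KO culture 1, 0 higher and 3 lower without KO culture 2, 0 higher and 16 lower without KO tumour 1, 3 higher without KO tumour 3), but 4 and 4 with library totals. Cox4i1, a subunit of cytochrome oxidase, fell from 777 and 1154 to 581 and 346 CPM (log2 fold change -1.06, SE 0.29, adjusted p = 0.014).

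Proliferation genes showed no common direction. Of 28 replication and mitosis genes, 2 were called higher and 5 lower (1 higher and 1 lower without KO culture 2, 13 higher without KO tumour 1, 4 higher and 10 lower without KO tumour 3). Library totals gave 9 and 3. Mki67, which encodes Ki-67, had 40.9 and 23.7 CPM in the KO cultures and 110.1 and 423 CPM in the KO tumours (adjusted p = 0.0745). Top2a, a mitotic topoisomerase, had 158 and 172 CPM in the KO cultures and 98.4 and 284 CPM in the KO tumours (adjusted p = 0.765), below both cultures in KO tumour 1 and above both in KO tumour 3. Mcm6, a helicase subunit, rose from 90.9 and 88.1 to 249 and 225 CPM (log2 fold change 1.40, SE 0.18, adjusted p = 0.000107), and Mcm7, another subunit of that helicase, fell from 145 and 181 to 67.8 and 88.5 CPM (log2 fold change -1.06, SE 0.21, adjusted p = 0.00133).

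The 2 KO tumours were further apart than the 2 cultures. Of 7618 tested genes with a mean of at least 20 CPM in the tumours, 109 were over 2-fold higher in KO tumour 1 and 173 in KO tumour 3. Of 7403 genes at that level in culture, 3 were over 2-fold apart. With 1 library each this is a description without a test. The genes furthest above in KO tumour 1 were Gkn1, Gkn2, Car2, Car9 and Atp9a. Car2, a carbonic anhydrase, had 343 and 30.9 CPM in KO tumours 1 and 3. Those furthest above in KO tumour 3 were Hmga2, C3, Gbp4, Cxcl9 and Gbp6. Hmga2, an architectural factor of embryonic and cancer cells, had 2.18 and 53.5 CPM in the tumours and 94.4 and 74.1 CPM in the cultures, so that KO tumour 1 alone lay far below. C3, the central complement component, had 10.9 and 98.6 CPM. By list, KO tumour 3 was higher in 25 of 28 replication genes, 21 of 23 macrophage markers and 25 of 25 type I interferon genes with at least 0.5 CPM in both. KO tumour 1 was higher in 13 of 14 gastric genes, 25 of 26 respiratory chain genes and 11 of 12 muscle genes. Over all 14185 tested genes with that minimum, the split was 7231 and 6953.

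**Figure D4:**
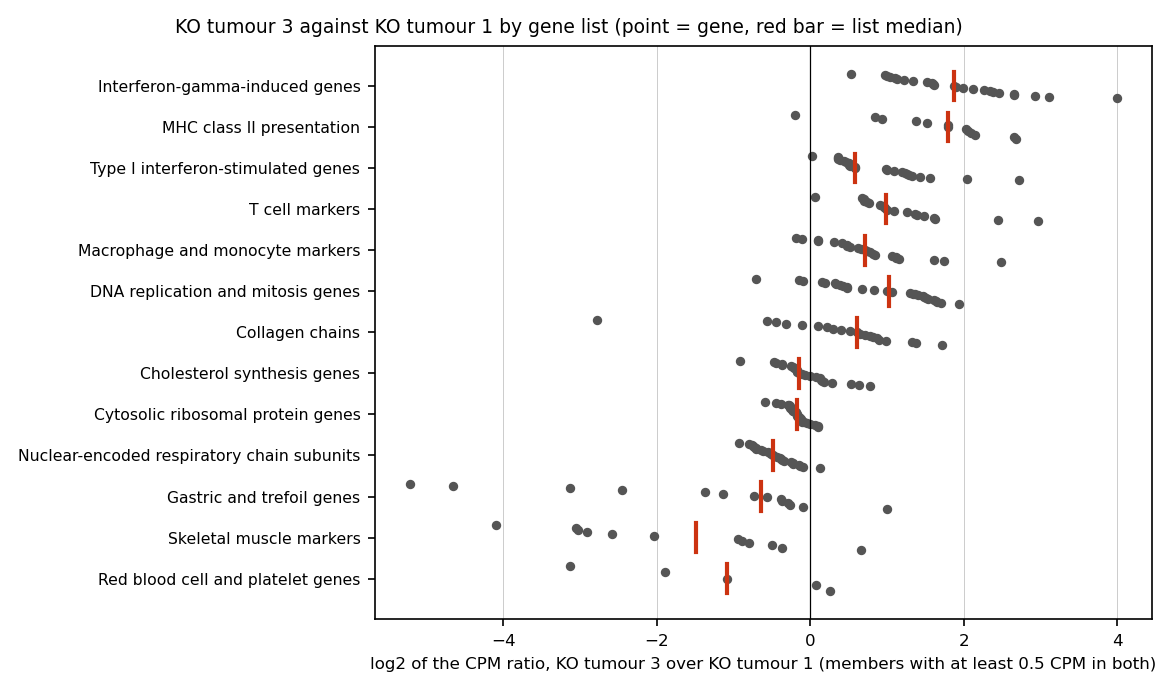
Log2 ratio of KO tumour 3 over KO tumour 1 for members of selected gene lists with at least 0.5 CPM in both tumours. Each point is a gene and each red bar the median of its list. The interferon-gamma and class II lists have medians of 1.87 and 1.80, and the muscle list one of -1.49.

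To ask which of these changes differed from those of the unmodified line, the tumour-minus-culture effect in KO was tested against that in WT in 1 fit of all 9 libraries. Of 16793 genes tested, 705 (4.2%) had a KO effect above the WT effect and 268 (1.6%) one below it, 5.79% in all. Levels in this comparison are scaled over the 9 libraries. Of the type I interferon genes, 18 of 25 had a higher effect in KO and none a lower one. In 23 of the 25 both KO cultures lay below both WT cultures, and in 16 both KO tumours lay above all 3 WT tumours, beside 28.5% and 26.9% of all genes. Oas2 had 3.73 and 2.28 CPM in the WT cultures, 0.0556 and 0.417 in the KO cultures, 65.8, 55.2 and 89.4 in the WT tumours, and 122 and 169.8 in the KO tumours (difference in log2 effect 4.80, SE 0.67, adjusted p = 0.00327). Ifih1 had 6.88 and 6.33 CPM in the WT cultures, 0.222 and 0.278 in the KO cultures, 19.9, 22.8 and 22.6 in the WT tumours, and 26.8 and 26.6 in the KO tumours (difference 4.99, SE 0.34, adjusted p = 0.000138). In both genes the KO cultures were the lowest group and the KO tumours the highest. Of the interferon-gamma genes 4 of 25 were called, all above. The interferon-stimulated count was 11 without KO culture 1, KO culture 2 or WT culture 2, and 24 without KO tumour 1. The interferon-gamma count was 1 without KO culture 1, 2 without KO culture 2, WT culture 2 or WT tumour 1, and 12 without KO tumour 1. Over all genes the split was 223 above and 57 below without KO culture 1.

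Of the cholesterol synthesis genes, 20 of 25 were above and none below. Both KO cultures lay below both WT cultures in 23 of the 25, and both KO tumours above all 3 WT tumours in 4. Fdft1 had 118 and 123 CPM in the WT cultures, 25.5 and 26.7 in the KO cultures, 73.7, 70.5 and 90.1 in the WT tumours, and 89.4 and 77.5 in the KO tumours (difference 2.30, SE 0.22, adjusted p = 0.00049). Insig1, a sterol sensor, had 393 and 477 CPM in the WT cultures, 138 and 147 in the KO cultures, 122, 97.8 and 124 in the WT tumours, and 137 and 209 in the KO tumours (difference 2.21, SE 0.28, adjusted p = 0.00181). In both genes the KO cultures lay below the WT cultures, and in Fdft1 the tumours of the 2 lines overlapped. The count was 9 without KO culture 1 and 11 without WT culture 2. Of mitochondrially encoded transcripts 7 of 13 were above, 3 without KO culture 1 and 4 without WT culture 1. Of nuclear respiratory chain genes 10 of 26 were above, which became 1 without KO culture 1 or WT culture 2 and 21 without KO tumour 3. Both KO tumours lay above all WT tumours in 26 of 26 nuclear respiratory chain genes and 12 of 13 mitochondrial transcripts, beside 26.9% of all genes. Both KO cultures lay below both WT cultures in 6 and 7 of them, beside 28.5%. mt-Nd4, a complex I subunit, had 1800 and 1198 CPM in the WT cultures, 904 and 837 in the KO cultures, 701, 829.7 and 820.2 in the WT tumours, and 1730 and 1226 in the KO tumours (difference 1.70, SE 0.30, adjusted p = 0.00777).

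Some changes were larger downward in KO. Aqp5 had 11.8 and 11.6 CPM in the WT cultures, 34.0 and 36.0 in the KO cultures, 1.31, 0.854 and 2.04 in the WT tumours, and 0.117 and 0.108 in the KO tumours (difference -5.16, SE 0.59, adjusted p = 0.00108). Ccn1 had 289.7 and 297 CPM in the WT cultures, 487 and 444 in the KO cultures, 86.3, 110.3 and 85.4 in the WT tumours, and 38.7 and 25.0 in the KO tumours (difference -2.23, SE 0.28, adjusted p = 0.00183). Ptgs2 had 119 and 112 CPM in the WT cultures, 116 and 107 in the KO cultures, 13.7, 12.2 and 15.7 in the WT tumours, and 1.11 and 3.02 in the KO tumours (difference -2.67, SE 0.39, adjusted p = 0.0033). In these 3 genes the KO tumours were the lowest group. Tff3, a trefoil peptide, had 13.8 and 25.4 CPM in the WT cultures, 2.501 and 3.61 in the KO cultures, 0.243, 0.804 and 0.255 in the WT tumours, and 36.8 and 4.11 in the KO tumours (difference 8.24, SE 1.31, adjusted p = 0.00882), with KO tumour 1 alone high. Itga2 itself did not pass (difference -0.70, SE 0.26, adjusted p = 0.144). Col1a1 did not pass either (difference 3.46, SE 2.03, adjusted p = 0.385), and its difference rests on 1 count over the KO cultures. It had 2.34 and 0.848 CPM in the WT cultures and 0 and 0.0694 in the KO cultures. The WT tumours had 757, 542 and 1406 CPM of it and the KO tumours 175 and 293 CPM. In 16 of 21 collagen chains both KO tumours lay below all WT tumours, beside 26.1% of all genes, and in 1 both lay above. The cultures were ordered alike in 12 of the 21, with both KO cultures below both WT cultures, beside 28.5% of all genes. In the test of the effects, 2 of the 21 chains were above in KO and none below, so a smaller rise of collagen genes in KO was not shown. Cd8a had no count in any of the 4 cultures, so its difference between the lines could not be estimated. None of the 30 ribosomal protein genes was called in either direction.

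**Figure D5:**
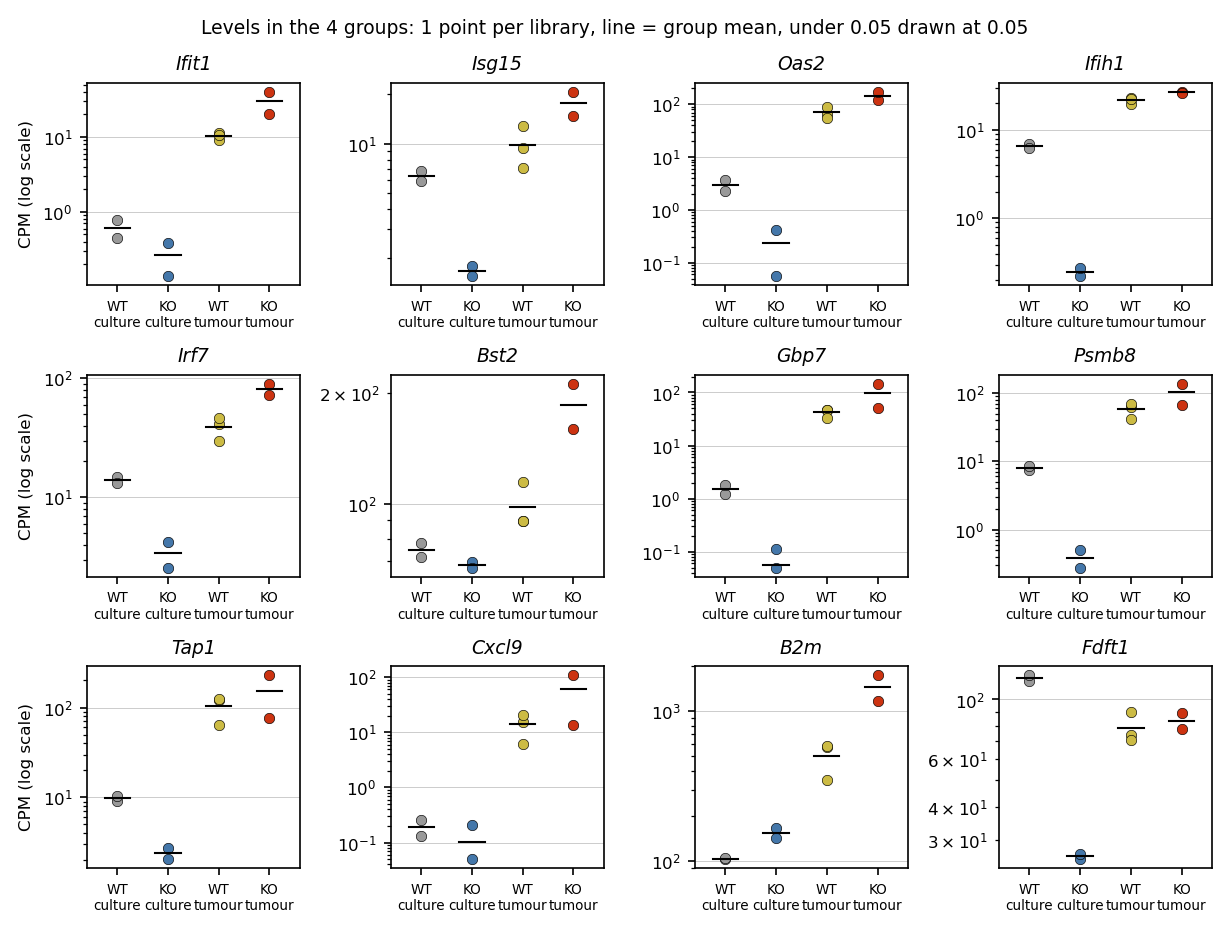
Level of interferon-inducible genes, antigen-presentation genes and the cholesterol gene Fdft1 in all 9 libraries by group, in CPM on log axes that differ between panels. 1 point is 1 library and the line the group mean; values under 0.05 are drawn at 0.05. Oas2, Ifih1 and Psmb8 are lowest in KO cultures and highest in at least 1 KO tumour.

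On the sex chromosomes, Xist, the transcript of the inactive X, rose from 490.5 and 275 to 1438 and 1742 CPM (log2 fold change 2.06, SE 0.28, adjusted p = 0.000304), while Ddx3y, Kdm5d, Uty and Eif2s3y of the Y had no count in any of the 4 libraries. The strand setting of the authors' counting is not given in the sources used here, so reads of Xist and of its antisense partner Tsix cannot be told apart.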

How the data were processed

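Per the submitters' processing notes, the authors' tools included STAR 2.5.2b and fastp 0.23.1, beside DESeq2, featureCounts and Subread 1.5.2, on GRCm38 (mm10). Per the labels, mRNA libraries carried molecular identifiers and duplicates were removed. The deposited values used are raw counts per Ensembl gene, 1 table for cultures and 1 for tumours, joined by Ensembl identifier. The sources used here give no annotation release, strand setting or treatment of multi-mapping reads. The labels name ERCC spike-ins, which were not analysed here, so absolute RNA amounts were not compared.

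Counts were filtered (filterByExpr, minimum count 10 in enough libraries and 15 in total), scaled by TMM and tested with edgeR 4.0.16 (R 4.3.3), robust quasi-likelihood, Benjamini-Hochberg adjusted p under 0.05, on the 2 KO cultures and 2 KO tumours; the contrast of KO with WT effects used all 9 libraries. limma 3.58.1 and DESeq2 1.42.0 served as alternatives. Only the main edgeR fit and the edgeR contrast with WT were run on simulated counts, with far fewer changed genes than were called in the data. Changes of 1 log2 unit were recovered in 66.7% of cases in the main fit and 31.2% in the contrast. The planted changes were all in genes with a mean of at least 5 CPM, so these shares do not cover genes at lower levels. A gene that did not pass may therefore still differ. A fold against 0 counts uses a floor of 3 counts over the group; these bounds and the 95% intervals cover counting error only. Named genes were a fixed set around CD49b and T cells, the most abundant genes absent from culture, the largest rises and falls among genes with at least 5 CPM in culture, the largest differences of effect, the largest gaps between the KO tumours, and leading or opposing members of each list. Members and lists were chosen with earlier results of these data known. Replicates differed beyond sampling noise (chi-square per degree of freedom 23 and 39.2). Some named items are not reported here.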

Additional observations from a re-analysis of the deposited data

Results flagged for a closer look

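The test of the KO effect against the WT effect gave 705 genes above and 268 below, 5.79% of 16793. Among genes with at least 5 CPM in some group, the 5 with the largest difference in each direction are given here, in CPM scaled over the 9 libraries and with p from edgeR. Gng2, a G protein gamma subunit, had 6.19 and 5.61 CPM in the WT cultures, 0 and 0 in the KO cultures, 13.3, 12.4 and 17.6 in the WT tumours, and 4.73 and 9.78 in the KO tumours (adjusted p = 0.00225 for the difference). Tm4sf5, a tetraspanin-like surface protein, had 0.189 and 0.326 CPM in the WT cultures, 0 and 0 in the KO cultures, 4.18, 4.67 and 3.32 in the WT tumours, and 67.2 and 20.3 in the KO tumours (adjusted p = 0.0496 for the difference). Slfn5, a Schlafen family member, had 2.21 and 1.04 CPM in the WT cultures, 0 and 0 in the KO cultures, 30.0, 18.4 and 31.4 in the WT tumours, and 21.2 and 56.8 in the KO tumours (adjusted p = 0.0377 for the difference). Tceal8 had 5.87 and 6.46 CPM in the WT cultures, 0 and 0 in the KO cultures, 6.12, 4.42 and 8.04 in the WT tumours, and 2.22 and 2.48 in the KO tumours (adjusted p = 0.00223 for the difference). In each of these 4 genes the KO cultures had no count while both WT cultures did, so the size of the difference depends on the prior count of the fit and is not given. In Gng2 and Tceal8 the KO tumours lay below the WT tumours. Tff3 had the other large difference upward (adjusted p = 0.00882), with KO tumour 1 alone high.

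In the other direction, Il13ra2, the interleukin 13 decoy receptor, had 3.66 and 4.24 CPM in the WT cultures, 4.72 and 6.596 in the KO cultures, 0.0972, 0.653 and 0.765 in the WT tumours, and 0 and 0 in the KO tumours (adjusted p = 0.0413 for the difference). The KO tumours had no count of it. Lcn2, lipocalin 2, had 19.9 and 16.6 CPM in the WT cultures, 36.2 and 29.7 in the KO cultures, 5.78, 25.3 and 44.1 in the WT tumours, and 0.876 and 0.81 in the KO tumours (difference in log2 effect -5.74, SE 1.10, adjusted p = 0.0206). Sh2d6 had 0.189 and 0.131 CPM in the WT cultures, 0.278 and 0.208 in the KO cultures, 4.13, 6.13 and 8.85 in the WT tumours, and 0.0584 and 0.324 in the KO tumours (difference in log2 effect -5.58, SE 1.09, adjusted p = 0.0133). Pof1b, an epithelial actin-binding protein, had 0.0631 and 0.0653 CPM in the WT cultures, 0.611 and 0.347 in the KO cultures, 6.85, 8.34 and 3.02 in the WT tumours, and 1.34 and 1.68 in the KO tumours (difference in log2 effect -4.80, SE 1.01, adjusted p = 0.0188). In these 3 genes both KO tumours lay below all 3 WT tumours. Aqp5 had an adjusted p of 0.00108. What lies behind these 10 differences was not tested.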

How the results depend on the processing

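The split of higher and lower genes depended on scaling and on single libraries. Against 4487 higher and 3701 lower, library totals gave 6052 and 2222, and a required fold of at least 2 gave 2225 and 1070. Leaving out 1 library in turn gave 2413 to 4921 higher and 2244 to 3915 lower, with both lowest counts without KO culture 2. A lone library in an arm is assumed to vary like the others. RLE scaling, other filters, DESeq2, limma-voom, 1 fit of 9 libraries and TMM without host genes kept both counts within 1.5 times. Of 705 above and 268 below in the contrast with WT, DESeq2 gave 1063 and 562 and no filter 1308 and 567, while leaving out 1 library gave 223 to 1175 and 44 to 520. Without KO culture 1 they were 223 and 57, without KO culture 2 321 and 133, without KO tumour 3 1175 and 520, without WT culture 1 455 and 139, without WT culture 2 282 and 44, without WT tumour 1 443 and 136, and without WT tumour 2 418 and 108. Without KO tumour 3, the fall of Ivl, a keratinocyte gene, was called (log2 -1.52, adjusted p = 1.07e-05 by edgeR), as was that of Top2a (-0.75, adjusted p = 0.00636); neither was called with it, and without KO tumour 1 they were at 0.73 and 0.76. The cause was not tested. The labels do not say whether a replicate number links a culture to a tumour, and 2 libraries per group cannot decide it. The correlation of deviations between culture 1 and tumour 1 was -0.17 over 10533 genes with at least 5 CPM. With the numbers as a block, 4408 genes were higher and 3588 lower, and 629 above and 258 below in the contrast. A crossed pairing, added after seeing the data, gave 4726 and 3976. At this depth Ifng and Ncr1 were too low to be tested.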

Other observations

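Complement genes were called higher in 11 of 17 tested and lower in 1. Cfb, factor B of the alternative pathway, rose from 13.6 and 12.3 to 58.9 and 58.2 CPM (log2 fold change 2.17, SE 0.21, adjusted p = 1.42e-05). Cd55, which protects cells from complement, fell from 6.29 and 9.32 to 1.51 and 1.37 CPM (log2 fold change -2.43, SE 0.43, adjusted p = 0.000735). Among endoderm and pancreatic transcription factors, 7 of 15 tested were called higher and 2 lower (1 lower without KO culture 1, 3 higher without KO culture 2), and 11 and 1 with library totals. Onecut2 rose from 210.0 and 149 to 1003 and 955 CPM (log2 fold change 2.45, SE 0.22, adjusted p = 1.05e-05). Foxa1 fell from 34.1 and 26.3 to 17.96 and 13.8 CPM (log2 fold change -0.93, SE 0.24, adjusted p = 0.00644). Of suppressive surface and enzyme genes, Arg1, the arginase of myeloid cells, rose from 0.156 and 0.13 to 10.7 and 17.4 CPM (log2 fold change 6.54, SE 0.53, adjusted p = 5.78e-06). Pvr, a ligand of Tigit, fell from 111 and 109 to 42.6 and 47.2 CPM (log2 fold change -1.29, SE 0.19, adjusted p = 0.000217).

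Oxidative stress and angiogenic genes moved in both directions. Of 17 NRF2 targets, 6 were called lower and 1 higher (2 higher without KO culture 1, 0 higher without KO culture 2, 3 higher without KO tumour 1), and 4 and 4 with library totals. Hmox1, heme oxygenase, fell from 144 and 118 to 26.8 and 21.8 CPM (log2 fold change -2.43, SE 0.21, adjusted p = 8.99e-06), and Gsr, glutathione reductase, rose from 505 and 439.8 to 750.5 and 838 CPM (log2 fold change 0.75, SE 0.19, adjusted p = 0.0064). Of 10 tested angiogenic factors, 5 were called higher and 2 lower. Pdgfa rose from 1.67 and 1.75 to 17.4 and 7.17 CPM (log2 fold change 2.84, SE 0.47, adjusted p = 0.000517), and Angptl4, which fasting and hypoxia induce, fell from 180.1 and 158 to 55.1 and 62.1 CPM (log2 fold change -1.53, SE 0.19, adjusted p = 7.92e-05). Skin keratinocyte and hair follicle markers had 150.1 and 157 CPM in the KO cultures and 176 and 95.2 CPM in the KO tumours in sum, with 1 of 4 tested called higher, and Krt14, a basal keratin that the line itself expressed, had 126 and 131 CPM in the KO cultures and 162 and 55.5 CPM in the KO tumours (adjusted p = 0.744). Mcpt4, a mast cell protease, rose from 0.156 and 0.453 to 21.4 and 8.49 CPM (log2 fold change 5.64, SE 0.66, adjusted p = 0.000178).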
